A study of Mus musculus with 8 samples.

Results

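Expression of 10 regulators of pluripotency and of the inner cell mass was examined in mouse preimplantation embryos cultured with or without trimetazidine (TMZ), which blocks long-chain 3-ketoacyl-CoA thiolase, an enzyme of fatty acid β-oxidation. The members are Pou5f1, Nanog, Sox2, Klf4, Klf5, Esrrb, Tfcp2l1, Sall4, Zfp42 and Nr5a2, taken by name as known regulators of these cells. All 10 were found among the 26121 genes named in the 8-cell table and the 23103 named in the morula table. At the morula stage Pou5f1, Nanog, Tfcp2l1 and Klf5 of 9 members tested were lower with TMZ past the study's threshold, against 10.7% of all entries. Sall4 was higher, against 7.16%. Of these calls only those of Pou5f1 and Nanog held when each library was left out in turn. No member passed the threshold in 8-cell embryos, against 4.96% of all entries lower and 1.35% higher. All adjusted p-values of members stayed above 0.05, also for a difference of the TMZ effect between stages.

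The embryos were wild type, from ICR mice, and were cultured in KSOM medium. TMZ at 100 μM was added at the 2-cell stage according to the labels (the study's methods also mention the zygote stage), the labels name no vehicle for controls, and embryos were collected as 8-cell embryos or as morulae. Each of the 4 groups had 2 libraries made by full-length mRNA amplification, described in one place as biologically independent while the study's methods state a different number of replicates, and the number of embryos in a library is not given in the sources used here. The library totals ran from 31672356 to 64814423 fragments, and with 2 libraries in a group the spread between replicates is poorly known. The 2 TMZ columns of the 8-cell table cannot be told apart by their headers and are named library A and library B. Library B was the deepest, with 6563 entries at 0, and library A had 12433 entries at 0.

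In the mouse embryo, the blastomeres of the morula are allocated to the outer trophectoderm or to the inner cell mass, which later gives the epiblast and the primitive endoderm. Pou5f1, Nanog and Sox2 encode the core transcription factors of the pluripotent state, and they bind many of the same regulatory regions in embryonic stem cells. Klf4, Klf5, Esrrb, Tfcp2l1, Nr5a2, Sall4 and Zfp42 belong to or mark the network around them. Several of these genes are already transcribed in all blastomeres before the first lineages separate.

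Gene names are inferred here, because the deposited tables list values without names. FPKM is the fragment number of a gene scaled to gene length and library total, so levels of different genes can be set side by side. The values were solved for whole fragment numbers and gene lengths, and the lengths were aligned in order to the genes of GENCODE vM39. The posterior probability was at least 0.988 for every member in both tables. For the 9 members with a length in both tables this length was the same in both, and it differed from the reference by 0.102% for Nr5a2 up to 6.70% for Zfp42. Genes with incompatible lengths between the tables lost their names, so the agreement between tables is no separate check of a name. Sox2 had exactly the reference length of 2057 bases at the 8-cell stage and gave no length in the morula table, where it is at 0 throughout. As a limit of such names, the entries named Gapdh and Tuba1b, abundant transcripts in most cells, reached at most 3.03 and 8.17 FPKM.

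Promoter sequences of 4 members are shown because 3 of them (Nanog, Pou5f1 and Tfcp2l1) were lower in TMZ-treated morulae while Zfp42 was not. Each covers 300 bases, from 250 before to 50 after the annotated start, 5′ to 3′ on the strand of the gene (RefSeq, GRCm38.p6). Capitals mark matches on either strand to ATGCAAA (the first 7 bases of the octamer bound by POU factors), ACAATG (bound by SOX factors), GGGNGTGG (bound by Krüppel-like factors) and AGGTCA (bound by nuclear receptors). The windows lie at chr6:122707239-122707538, plus strand (Nanog), chr17:35505782-35506081, plus strand (Pou5f1), chr1:118627695-118627994, plus strand (Tfcp2l1) and chr8:43306960-43307259, minus strand (Zfp42).
Nanog: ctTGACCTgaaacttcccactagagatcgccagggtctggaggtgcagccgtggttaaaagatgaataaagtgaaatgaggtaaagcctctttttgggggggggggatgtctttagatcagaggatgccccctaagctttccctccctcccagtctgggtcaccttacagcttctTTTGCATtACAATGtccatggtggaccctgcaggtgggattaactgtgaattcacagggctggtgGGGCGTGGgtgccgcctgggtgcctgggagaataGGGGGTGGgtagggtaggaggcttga
Pou5f1: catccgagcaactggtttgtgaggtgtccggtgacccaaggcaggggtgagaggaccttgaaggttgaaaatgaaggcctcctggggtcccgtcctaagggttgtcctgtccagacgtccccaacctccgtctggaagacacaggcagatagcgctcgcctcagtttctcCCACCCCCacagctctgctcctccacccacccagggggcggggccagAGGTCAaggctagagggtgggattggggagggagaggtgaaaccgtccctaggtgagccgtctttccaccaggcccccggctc
Tfcp2l1: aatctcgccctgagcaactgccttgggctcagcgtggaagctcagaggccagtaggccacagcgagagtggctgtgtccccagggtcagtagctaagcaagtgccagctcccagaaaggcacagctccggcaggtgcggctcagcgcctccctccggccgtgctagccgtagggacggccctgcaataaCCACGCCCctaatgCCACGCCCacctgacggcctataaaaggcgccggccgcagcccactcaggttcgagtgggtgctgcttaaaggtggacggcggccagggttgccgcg
Zfp42: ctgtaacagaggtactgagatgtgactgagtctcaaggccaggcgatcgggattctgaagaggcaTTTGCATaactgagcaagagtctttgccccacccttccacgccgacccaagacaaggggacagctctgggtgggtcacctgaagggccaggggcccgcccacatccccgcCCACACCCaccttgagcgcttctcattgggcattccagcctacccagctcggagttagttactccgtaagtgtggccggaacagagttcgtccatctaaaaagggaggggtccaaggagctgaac

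The Nanog window held all 4 motifs, with the POU motif and the SOX motif 1 base apart. Of 27025 RefSeq windows, 4.6% held the POU motif, 12.8% the SOX motif, 17.7% the Krüppel-like motif and 16% the nuclear receptor motif. Of the 8 members with a window, 3 held the POU motif (Nanog, Sox2 and Zfp42) and 2 held the SOX motif (Nanog and Esrrb). The Krüppel-like motif stood in 4 windows (Pou5f1, Nanog, Tfcp2l1 and Zfp42), and the nuclear receptor motif also in 4 (Pou5f1, Nanog, Sox2 and Nr5a2). A match describes the letters only, and Zfp42 shared motifs with the 3 genes that were lower.

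The members spanned levels from 0 to over 100 FPKM. In 8-cell controls the mean was highest for Klf5 (85.6 FPKM), then Zfp42 (73.8 FPKM) and Sall4 (64.7 FPKM). Nr5a2 (27.5 FPKM), Nanog (23.7 FPKM), Klf4 (15.5 FPKM) and Pou5f1 (15.3 FPKM) followed, and Esrrb (1.82 FPKM) and Tfcp2l1 (1.75 FPKM) were near the bottom. Control libraries of neighbours in this order overlapped for Zfp42 and Sall4, for Nr5a2 and Nanog, for Klf4 and Pou5f1, and for Esrrb and Tfcp2l1. In control morulae Zfp42 was highest (107.6 FPKM), followed by Klf5 (51.7 FPKM), Sall4 (45.0 FPKM), Pou5f1 (36.3 FPKM), Nanog (26.4 FPKM) and Nr5a2 (21.4 FPKM). Klf4 (8.29 FPKM), Tfcp2l1 (8.03 FPKM) and Esrrb (2.01 FPKM) came last among the detected members. Here only Sall4 with Pou5f1 and Klf4 with Tfcp2l1 overlapped their neighbour. Among the entries tested, 91.4% lay below Klf5 at the 8-cell stage and 92.9% below Zfp42 at the morula stage.

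**Figure D1:**
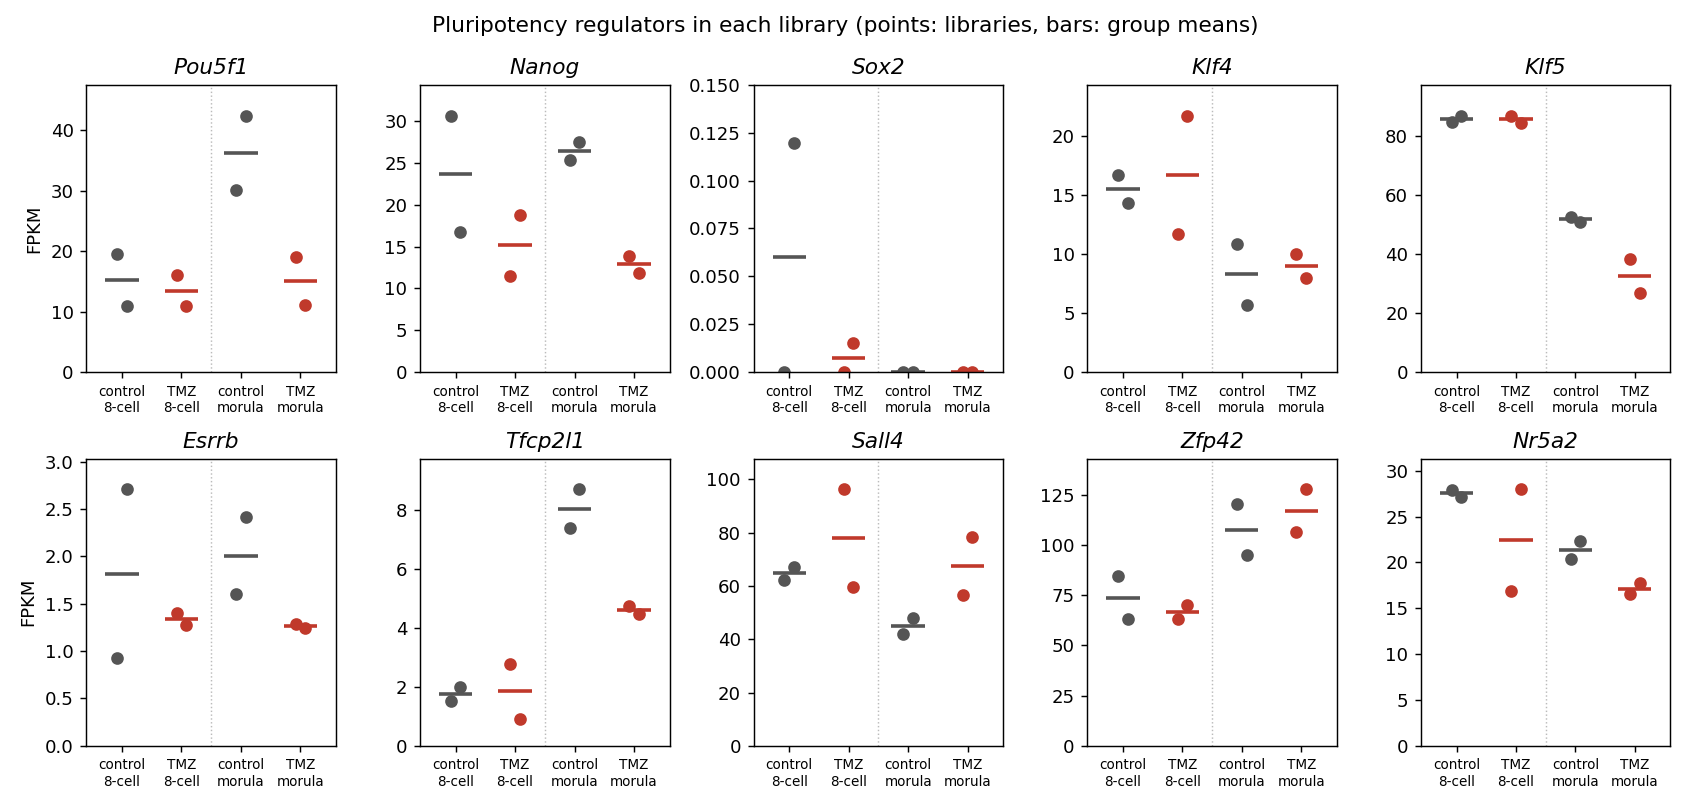
FPKM (vertical axes, from 0, a scale per gene) of the 10 members in every library, with controls in grey, TMZ in red and group means as bars. The TMZ morulae lie below both control morulae for Pou5f1, Nanog, Klf5, Esrrb, Tfcp2l1 and Nr5a2, above them for Sall4, and Sox2 is near or at 0 throughout.

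To ask whether the inhibitor changed these genes, TMZ was compared with control within each stage by limma-trend on log2(FPKM + 1) over all entries averaging 1 FPKM or more. On this scale the differences of weakly expressed genes come out too small. The study's threshold was used, P under 0.05 before adjustment together with a log2 fold change beyond 0.5 in either direction. In the fit for morulae 1040 of 9685 entries were lower past the threshold and 693 were higher, and only 3 had an adjusted p-value under 0.05. Of the 9 members tested, 4 were lower, against 10.7% of all entries, and 1 was higher, against 7.16%. The median difference of the 9 members was -0.40 on the log2 scale and that of all entries -0.08.

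Pou5f1 (chr17:35816789-35822274, plus strand, GRCm39), which encodes the POU factor OCT4, stood at 30.2 and 42.4 FPKM in control morulae and at 18.97 and 11.03 FPKM in TMZ-treated morulae. Both TMZ libraries were below both controls. The means were 36.3 ± 8.64 FPKM (SD, n = 2) and 14.997 ± 5.62 FPKM (SD, n = 2), a log2 difference of -1.25 (SE 0.29), with an adjusted p of 0.167 by limma. Nanog (chr6:122679780-122691601, plus strand), a homeobox factor of the epiblast, had 25.3 and 27.5 FPKM in control morulae and 13.9 and 11.9 FPKM with TMZ. These groups were apart by several times their own spread. The log2 difference was -0.98 (SE 0.18), with an adjusted p of 0.161 by limma.

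These calls for Pou5f1 and Nanog held under every alternative tried at the morula stage, leaving out each library included. The difference ranged from -1.61 to -0.88 for Pou5f1 and from -1.09 to -0.88 for Nanog. Both genes share sequence with other places in the genome, where 20.1% of the 31-base stretches of Pou5f1 and 34% of those of Nanog recur in GRCm39. Pou5f1 is also overlapped over 13.4% of its exons by Gm19553 on the opposite strand. The strand setting of the counting is not given in the sources used here, so fragments of the antisense gene cannot be told apart.

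Sox2 (chr3:34704554-34706610, plus strand), the SOX factor that pairs with OCT4 in embryonic stem cells, was barely detected. At the 8-cell stage the controls had 0 and 8 fragments and TMZ libraries A and B had 0 and 2. All 4 morula libraries had 0, which allows up to 0.0435 to 0.046 FPKM at 3 fragments, counting error only. The morula entry gave no length, so its name rests on its place in the order alone. An error of naming is not covered by this bound. No fold was computed, and the gene was below the level required for the test at both stages.

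Of the Krüppel-like factors, Klf5 passed the threshold and Klf4 did not. Klf5 (chr14:99536086-99552473, plus strand), a zinc finger factor used in both trophectoderm and inner cell mass, had 52.6 and 50.8 FPKM in controls and 38.3 and 26.7 FPKM with TMZ. The TMZ libraries differed more from each other than the controls did, and both were below them. Its log2 difference was -0.67 (SE 0.21), with an adjusted p of 0.195 by limma. Without TMZ morula replicate 2 it was -0.42, and without control morula replicate 1 it was -0.65, neither past the threshold. Klf4 (chr4:55527139-55532528, minus strand), which helps to hold embryonic stem cells in the naive state, had 10.9 and 5.69 FPKM in controls and 10.02 and 7.94 FPKM with TMZ. The 2 TMZ values lay between the 2 control values, and the log2 difference was 0.16 (SE 0.31, adjusted p 0.796 by limma).

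Of the factors of the naive network, Tfcp2l1 (chr1:118555636-118612915, plus strand), a CP2 family factor downstream of LIF signalling, had 7.38 and 8.69 FPKM in control morulae. With TMZ it had 4.72 and 4.46 FPKM, below both controls. The log2 difference was -0.69 (SE 0.20), with an adjusted p of 0.183 by limma. It missed the threshold without control morula replicate 2 (-0.58), without TMZ morula replicate 2 (-0.65), and in a single fit over all 8 libraries (-0.69).

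Both orphan nuclear receptors lay lower with TMZ in every library without passing the threshold. Nr5a2 (chr1:136770303-136888186, minus strand), which can replace OCT4 in reprogramming, had 20.4 and 22.3 FPKM in control morulae and 16.6 and 17.7 FPKM with TMZ. Its log2 difference was -0.30 (SE 0.18, adjusted p 0.364 by limma). Esrrb (chr12:86407887-86568409, plus strand), a target of NANOG in embryonic stem cells, had 1.602 and 2.42 FPKM in controls and 1.29 and 1.24 FPKM with TMZ. Its log2 difference was -0.40 (SE 0.24, adjusted p 0.370 by limma), from 238 to 490 fragments in a library. In all, 6 of the 9 tested members had TMZ morulae below both controls, against 33.3% of all entries, and Sall4 alone had them above, against 22.3%.

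Of the zinc finger genes, Sall4 was higher past the threshold and Zfp42 was not past it. Sall4 (chr2:168590252-168609863, minus strand), a spalt-like factor that binds OCT4 and NANOG, had 41.9 and 48.1 FPKM in control morulae. With TMZ it had 56.8 and 78.3 FPKM, above both controls. The log2 difference was 0.56 (SE 0.21), with an adjusted p of 0.223 by limma. This call was the least stable of the 5. Sall4 missed the threshold without the filter on low values, without the trend, in the fit over 8 libraries, without control morula replicate 1 (0.46) and without TMZ morula replicate 2 (0.33). Gm14261, on the opposite strand, overlaps 11% of its exons. Zfp42 (chr8:43743871-43760152, minus strand), known as REX1 and widely used as a marker of naive cells, had 120.1 and 95.0 FPKM in controls and 106.3 and 127.6 FPKM with TMZ. These ranges overlapped, and the log2 difference was 0.12 (SE 0.19, adjusted p 0.728 by limma). Of its 31-base stretches, 41.6% recur elsewhere in GRCm39.

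Without TMZ morula replicate 2, only 2 of the 5 calls remained, Pou5f1 and Nanog, and the calls over all entries went from 1733 to 786. Without control morula replicate 1 there were 3 members past the threshold, Pou5f1, Nanog and Tfcp2l1.

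At the 8-cell stage 497 of 10021 entries were lower past the threshold and 135 were higher, and none had an adjusted p-value under 0.05 by limma, although 632 had an unadjusted P under 0.05. None of the 9 members tested was among them, against 4.96% of all entries lower and 1.35% higher. The median over all entries was -0.19 on the log2 scale, and 0.01 after median-ratio scaling of the libraries. Members are therefore read against a shifted centre at this stage. With that scaling 268 entries were higher and 280 lower, and the share of higher calls went from 21.4% to 48.9%. In morulae the same scaling moved it from 39.99% to 55.1% and left the same number of members past the threshold.

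Nanog lay farthest from 0, with 30.7 and 16.8 FPKM in 8-cell controls and 11.5 and 18.8 FPKM in TMZ libraries A and B. The groups overlapped, and the log2 difference was -0.59 (SE 0.41, adjusted p 0.809 by limma). Without library B it was -0.93 and passed the threshold, and the entries past it went from 632 to 1837. Pou5f1 had 19.5 and 10.97 FPKM in controls and 16.1 and 10.9 FPKM with TMZ, a log2 difference of -0.14 (SE 0.40). For this gene the 2 libraries of each group differed more than the group means.

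Klf5 was almost the same in all 4 libraries, at 84.6 and 86.7 FPKM in controls and 86.7 and 84.3 FPKM with TMZ. The log2 difference was 0.00 with an SE of 0.27, so the fit, which pools the spread over genes, still allows a change of some size. Klf4 had 16.7 and 14.3 FPKM in controls and 11.7 and 21.7 FPKM with TMZ, the TMZ values lying on either side of the controls. Sall4 likewise had 62.2 and 67.2 FPKM in controls and 96.2 and 59.7 FPKM with TMZ.

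Nr5a2 was at 27.9 and 27.2 FPKM in 8-cell controls and at 16.8 and 27.97 FPKM with TMZ, low in library A alone. Zfp42 had 84.4 and 63.1 FPKM in controls and 63.2 and 69.9 FPKM with TMZ. The low-level members varied widely between replicates in a single group each, Esrrb in controls and Tfcp2l1 with TMZ. Esrrb was at 0.92 and 2.71 FPKM in controls and at 1.40 and 1.28 FPKM with TMZ. Tfcp2l1 was at 1.502 and 1.99 FPKM in controls and at 2.76 and 0.92 FPKM with TMZ. For none of the 9 did the TMZ libraries lie clear of the controls, while 29.6% of all entries were lower and 8.09% higher in both TMZ libraries.

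**Figure D2:**
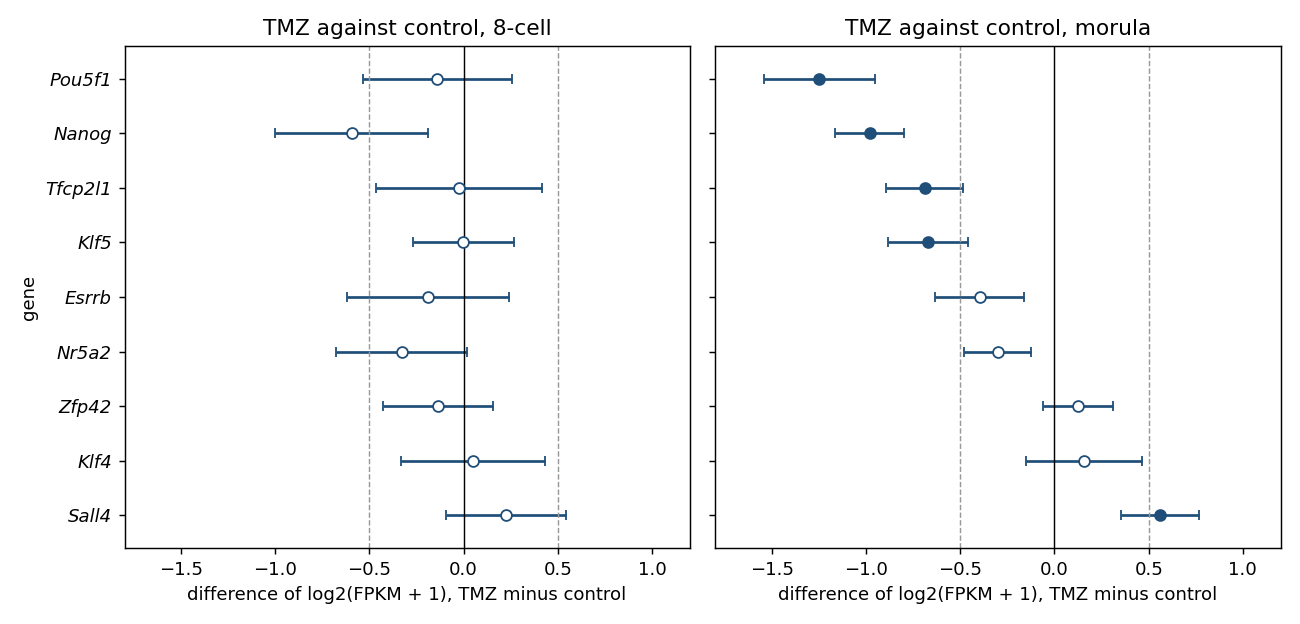
Difference of log2(FPKM + 1) between TMZ-treated and control embryos (horizontal axis) for the 9 tested members at each stage, with the SE from limma as bars, filled points for members past the threshold and dashed lines at 0.5 on either side of 0. At the morula stage the points run from -1.25 for Pou5f1 to 0.56 for Sall4, and at the 8-cell stage from -0.59 for Nanog to 0.23 for Sall4 with wider bars.

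A pass at one stage alone does not show that the stages differ, so the difference of the TMZ effects was tested over 8407 genes in all 8 libraries. No member had an adjusted p-value under 0.05 by limma, and none an unadjusted P under 0.05. Over all genes none passed the adjusted threshold and 647 had an unadjusted P under 0.05. The nearest members were Pou5f1, with a difference of effects of -1.11 (SE 0.52, adjusted p 0.683 by limma), and Klf5, with -0.67 (SE 0.31, adjusted p 0.691 by limma).

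The level changes from 8-cell to morula in controls give a scale for these differences. The stages were deposited as separate tables, so these are values set side by side with no test, and stage and table cannot be told apart. Tfcp2l1 and Pou5f1 were the members with the largest higher level in control morulae, by 1.72 and 1.23 on the log2 scale. Zfp42 was also higher, by 0.54. Klf4 (-0.88), Klf5 (-0.72), Sall4 (-0.52) and Nr5a2 (-0.35) were lower in control morulae, and Nanog (0.21) and Esrrb (0.16) overlapped between stages. Thus 3 of 9 members were higher in both morula libraries, against 22.5% of 8585 genes, and 4 were lower, against 32.3%. Leaving out single control libraries moved Pou5f1 between 0.84 and 1.62 and turned the sign only for Nanog (-0.21 to 0.62) and Esrrb (-0.31 to 0.63). The median over all these genes was -0.07.

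The stage change and the morula comparison share the control morula libraries, so an extreme control would move both, and their values are given next to each other only. For Pou5f1 the TMZ-treated morulae, at 18.97 and 11.03 FPKM, lay within the range of the 8-cell controls, at 19.54 and 10.97 FPKM. Its level in TMZ-treated embryos was 0.12 higher on the log2 scale at the morula stage than at the 8-cell stage, against 1.23 in controls. Tfcp2l1 in TMZ-treated morulae lay between the 2 sets of controls, 1.03 above the 8-cell controls on the log2 scale.

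Sall4 had the opposite order, and its TMZ-treated morulae lay on either side of the 8-cell controls, 0.04 higher on average on the log2 scale. For Klf5, the TMZ-treated morulae were below both sets of controls, with a log2 difference from the 8-cell controls of -1.39 where that of control morulae was -0.72. Nanog was below both sets as well, although its controls hardly differed between stages. Klf4, Zfp42 and Nr5a2 changed between stages by -0.78, 0.80 and -0.33 with TMZ and by -0.88, 0.54 and -0.35 in controls.

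**Figure D3:**
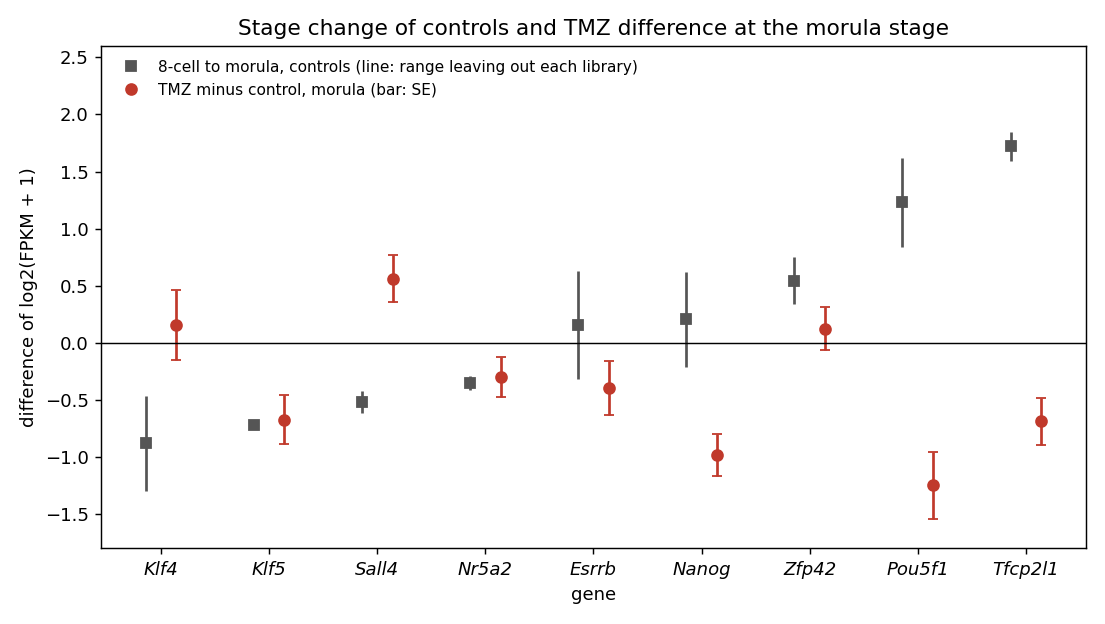
For the 9 tested members, the difference of log2(FPKM + 1) between control morulae and control 8-cell embryos (grey squares, with the range when each control library is left out) and between TMZ-treated and control morulae (red, with SE). Pou5f1 and Tfcp2l1 have the largest positive stage values (1.23 and 1.72) and negative TMZ values (-1.25 and -0.69), Sall4 has -0.52 and 0.56, and Klf5 is negative in both (-0.72 and -0.67); the control morulae enter both values.

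Other genes of the pluripotency network were read from a list of 32, of which 20 could be tested in morulae. Of these 6 were lower past the threshold and 1 was higher, against 10.7% and 7.16% of all entries, and the median of the 20 was -0.08, close to that of all entries. Tdh, the threonine dehydrogenase used by mouse embryonic stem cells, had 33.1 and 45.7 FPKM in control morulae and 11.3 and 16.8 FPKM with TMZ, a log2 difference of -1.43 (SE 0.26, adjusted p 0.161 by limma). Utf1, a chromatin factor of undifferentiated cells, had 68.6 and 86.4 FPKM against 39.6 and 41.1 FPKM. In both genes the TMZ libraries lay clear below the controls.

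The cell cycle factor gene Mybl2 was lower by -0.87 on the log2 scale, the T-box gene Tbx3 by -0.81, the AP-2 gene Tfap2c by -0.63 and the corepressor gene Trim28 by -0.54. The name of Mybl2 in morulae did not reach a posterior of 0.99. Trim28 missed the threshold after median-ratio scaling (-0.44). Tcl1, a cofactor of AKT kinases, was higher, at 7.08 and 3.53 FPKM with TMZ against 2.53 and 1.74 FPKM. Its log2 difference of 0.96 became 0.54 without TMZ morula replicate 1 and 0.78 without control morula replicate 2, and the call was then lost, as it was without the filter and in the fit over 8 libraries. Without control morula replicate 2, Tbx3 (-0.70), Tfap2c (-0.59) and Trim28 (-0.40) missed the threshold. The same genes missed it without TMZ morula replicate 2 (-0.63, -0.40 and -0.51). Dppa3, a maternal factor and the highest gene of the list, had 10840 and 13228 FPKM in control morulae and 14146 and 17623 FPKM with TMZ and did not pass. Among 8-cell embryos 2 of 19 were lower, against 4.96% of all entries, and none higher, against 1.35%. These were Mybl2 (-1.30) and Tcl1 (-1.26), and Tcl1 missed the threshold after scaling (-1.07), at a mean of at least 5 FPKM and without the filter. Mybl2 missed it without control 8-cell replicate 1 (-1.11), and Tcl1 without control 8-cell replicate 2 (-0.81). Neither passed without library A. Without library B of the 8-cell TMZ group, the log2 differences of Mybl2 (-1.8506) and Tcl1 (-1.8041) kept their direction and were larger in size.

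Genes of the trophectoderm, the outer lineage, were read in the same morulae. Of 8 genes tested 4 were lower past the threshold, against 10.7% of all entries, and none was higher, against 7.16%. Their median was -0.55, against -0.08 over all entries. Aqp3, a water channel, had 48.9 and 32.2 FPKM in controls and 17.3 and 18.1 FPKM with TMZ, a log2 difference of -1.12 (SE 0.23, adjusted p 0.161 by limma). The keratin gene Krt8 (-1.21), the bHLH gene Hand1 (-1.01) and the Hippo pathway coactivator gene Wwtr1 (-0.71) were the other 3. Without control morula replicate 2, or without TMZ morula replicate 1, Hand1 (-0.85 and -0.59) and Wwtr1 (-0.45 and -0.75) missed the threshold. Wwtr1 also missed it without TMZ morula replicate 2 (-0.67). Krt18, the highest gene of this list in morulae, had 58.4 and 41.3 FPKM in controls and 40.4 and 44.8 FPKM with TMZ, which overlapped. In 8-cell embryos none of 9 passed the threshold, and Hand1, the highest there, had 34.2 and 39.6 FPKM in controls and 14.05 and 37.6 FPKM with TMZ.

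**Figure D4:**
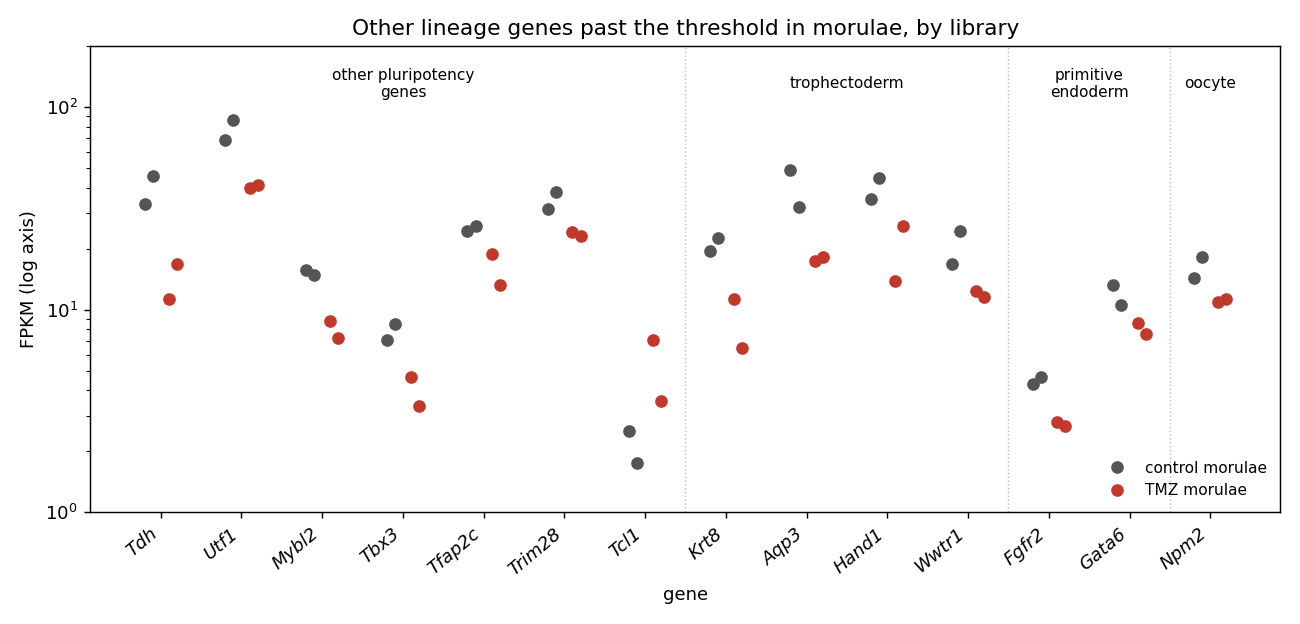
FPKM (log axis) in the 4 morula libraries of the genes past the threshold in the lists of other pluripotency genes, trophectoderm, primitive endoderm and oocyte genes, with controls in grey and TMZ in red. The 14 genes were chosen by the threshold in these same libraries, so their separation is no separate result. Tcl1 alone lies higher with TMZ, and the other 13 lie lower in both TMZ libraries. Of all entries 33.3% lay lower in both TMZ libraries and 22.3% higher.

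The sum of the 12 trophectoderm genes named in the morula table was 173 to 187 FPKM in control morulae and 102 to 113 FPKM in TMZ-treated morulae. The sum of the 10 members was 303 to 310 FPKM in controls and 267 to 287 FPKM with TMZ. The 28 other pluripotency genes named in that table, Dppa3 the highest, summed to 21184 to 25212 FPKM in controls and 24609 to 29451 FPKM with TMZ. The 14 oocyte genes summed to 51.6 to 63.3 FPKM in controls and 41.2 to 53.4 FPKM with TMZ. Cumulus and granulosa cell genes, of which 5 were named in morulae and 9 at the 8-cell stage, summed to at most 0.215 FPKM in any library. The highest of them were Dcn at the 8-cell stage, at most 0.185 FPKM, and Star in morulae, at most 0.103 FPKM. These libraries hold RNA of whole embryos, so fewer cells of a type and less RNA per cell cannot be told apart. The study reported lower developmental rates and a delay of embryos with TMZ. How far development had proceeded in the TMZ-treated embryos of these libraries was not tested here.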

How the data were processed

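RNA-seq libraries of mouse 8-cell embryos and morulae, control or treated with TMZ (2 each), were analysed from the deposited tables. The deposited unit is FPKM, calculated by the authors after trimming, alignment to GRCm39 and counting; the submitters' processing notes name fastp 0.23.4, STAR 2.7.9a and featureCounts 2.0.6, and the authors tested raw counts with DESeq2. The Ensembl release and the strand setting are not given in the sources used here. FPKM values were solved for whole library totals, gene lengths and fragment numbers, taking the smallest that fit (30037 of 31899 8-cell entries and 27780 of 29202 morula entries, the others being at 0 throughout).

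For naming, a pair hidden Markov model aligned these lengths, in order, to exonic lengths of GENCODE vM39 genes in Ensembl identifier order, at a posterior of at least 0.95. Transcripts numbered above 250000 were left out of the reference lengths. Names were given to 9000 of 10021 tested entries for 8-cell embryos and 8382 of 9685 for morulae, and 53 genes with incompatible lengths between tables were dropped. As a check, 75 of 75 cytosolic ribosomal protein genes and 4 of 273 olfactory receptor genes reached 1 FPKM at the 8-cell stage, and 70 of 71 and 3 of 162 in morulae.

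Per stage, TMZ-treated and control libraries were compared by limma 3.58.1 (R 4.3.3), with trend, on log2(FPKM + 1), for entries averaging 1 FPKM or more, two-sided, with Benjamini-Hochberg adjustment over all entries. Each P-value sets the difference of group means against a spread between these libraries that the fit partly pools over entries. Alternatives were a pseudocount of 0.1, a mean of at least 5 FPKM, no filter, median-ratio scaling, no trend, a posterior of at least 0.99, a fit over all 8 libraries, a replicate block (morulae) and leaving out each library. The fits and the naming were also run on simulated data. There the changed genes differed by more than any member did with TMZ. Most simulated lengths equalled the reference, unlike those of the members, so these runs do not measure the error rate here. The genes named are the 10 members, list genes past the threshold at either stage and the highest gene of each list in each table. Gapdh and Tuba1b were added after their values were seen. The members and lists were chosen with earlier results of these data known. Promoter windows are from RefSeq (8 of 10 members matched), and results of list genes under the alternatives were added after the data were seen.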

Additional observations from a re-analysis of the deposited data

How the results depend on the processing

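At the morula stage the member calls were 5 under a pseudocount of 0.1, a mean of at least 5 FPKM, median-ratio scaling, a posterior of at least 0.99 and the replicate block, 4 without the filter and without the trend, 3 in a single fit over 8 libraries, and 2 to 5 when single libraries were left out. In such fits the group left with 1 library is assumed to vary like the other. Calls over all entries (1733) became 1058 at a mean of at least 5 FPKM, 825 in the fit over 8 libraries, 1989 with the replicate block and 786 to 1869 with libraries left out. At the 8-cell stage (632) they became 281 at 5 FPKM, 1039 in the fit over 8 libraries and 276 to 1837 with libraries left out, and member calls stayed at 0 except without library B (0 to 1). The main fits tested 9685 entries in morulae and 10021 at the 8-cell stage. With the filter at 5 FPKM these were 5125 and 5226, and the fit over 8 libraries tested 8407 genes. The cause of the moves was not tested.

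Deviations of replicate 1 from the group mean were barely correlated between control and TMZ morulae (r = 0.0762 across 9685 entries). With 2 pairs this cannot decide whether the replicate numbers pair the libraries. No paired analysis was possible at the 8-cell stage because both TMZ columns carry the same header. The stage difference stayed at 0 members under both alternatives, and the stage change of controls at 3 to 4 members higher and 4 to 5 lower.

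For single members, 94 of 107 values at the morula stage kept direction and side of the threshold, 10 lost the call and 3 turned sign (Klf4 and Zfp42, whose ranges over single libraries left out were -0.26 to 0.57 and -0.0438 to 0.29). At the 8-cell stage 80 of 97 did, and 16 turned sign. Median-ratio scaling gave Pou5f1 0.10, Klf5 0.25, Tfcp2l1 0.14 and Zfp42 0.115. Leaving out single libraries gave ranges of -0.53 to 0.25 (Pou5f1), -0.37 to 0.47 (Klf4), -0.0228 to 0.0183 (Klf5), -0.66 to 0.28 (Esrrb), -0.51 to 0.46 (Tfcp2l1), -0.11 to 0.57 (Sall4), -0.34 to 0.0736 (Zfp42) and -0.68 to 0.0221 (Nr5a2).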

Other observations

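The primitive endoderm list, genes of a lineage that the inner cell mass later gives, had 3 genes that could be tested in morulae. Of these, 2 were lower past the threshold, against 10.7% of all entries. Gata6, a zinc finger factor that opposes Nanog in the inner cell mass, had 13.3 and 10.6 FPKM in control morulae and 8.58 and 7.53 FPKM with TMZ, a log2 difference of -0.51 (SE 0.21, adjusted p 0.252 by limma). The FGF receptor gene Fgfr2 had 4.28 and 4.63 FPKM in controls and 2.78 and 2.67 FPKM with TMZ, a log2 difference of -0.55 (SE 0.21, adjusted p 0.225 by limma). Neither passed after median-ratio scaling (-0.42 and -0.47), and neither did without control morula replicate 1, TMZ morula replicate 1 or TMZ morula replicate 2. Dab2, an endocytic adaptor and the highest gene of this list, overlapped between groups, at 53.1 and 37.4 FPKM in controls and 55.5 and 38.0 FPKM with TMZ. None of 4 passed the threshold in 8-cell embryos.

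Of the oocyte genes, 4 could be tested in morulae and 1 was lower past the threshold, against 10.7% of all entries. Npm2, a histone chaperone of the egg, had 14.3 and 18.2 FPKM in control morulae and 10.9 and 11.2 FPKM with TMZ, and its log2 difference of -0.51 became -0.41 after median-ratio scaling and no longer passed. Nor did it pass without control morula replicate 2 (-0.34), without TMZ morula replicate 1 (-0.49), without TMZ morula replicate 2 (-0.52) or in the fit over 8 libraries (-0.51). Padi6, a component of the egg's cytoplasmic lattices, had 24.4 and 24.7 FPKM in controls and 17.3 and 26.1 FPKM with TMZ. None of 8 passed in 8-cell embryos, where Npm2 had 20.5 and 23.5 FPKM in controls and 15.5 and 34.7 FPKM with TMZ. In that table the list summed to 81.2 to 86.5 FPKM in controls, 54.4 FPKM in one TMZ library and 89.6 FPKM in the other.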
